A study of Mus musculus with 9 samples.

Results

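The genes described here make, export or regulate cholesterol, or build fatty acids, in macrophages. They are 33 genes, chosen by name for their place in sterol and lipid metabolism, and all 33 were found among the 13593 genes of the count table. They fall into 21 targets of SREBP2 (18 enzymes of cholesterol synthesis, and Srebf2, Insig1 and Stard4), 10 targets of the liver X receptors (5 efflux and lipoprotein genes and 5 lipogenesis genes) and the 2 liver X receptor genes, Nr1h3 and Nr1h2.

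RNA came from macrophages grown from mouse bone marrow, cultured for 7 days with 15% supernatant of L929 fibroblasts, a source of macrophage growth factor. The mice were C57BL/6, wild type and 6 weeks old. All groups shared this strain, genotype, age and culture and differed in the protein added for 4 h at 4 nM: bovine serum albumin (BSA, the control protein), CX3CL1 or CCL26, both named in the series title as ligands of the receptor CX3CR1. Each group had 3 RNA-seq libraries, and the labels do not say that these came from separate animals or cultures, so p-values measure the spread between libraries, which may be technical.

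Sterol levels are held in balance by a pair of opposed programmes. When membrane cholesterol is low, the protein SREBP2 (gene Srebf2) is released from the endoplasmic reticulum, where INSIG1 helps to retain it, and switches on the enzymes that build cholesterol from acetyl-CoA through mevalonate and squalene. When oxysterols accumulate, the liver X receptors LXRalpha (Nr1h3) and LXRbeta (Nr1h2) switch on exporters such as ABCA1 and ABCG1, the ubiquitin ligase MYLIP that degrades lipoprotein receptors, and, through SREBP1 (Srebf1), fatty acid synthesis. In macrophages both programmes are studied for their part in cholesterol loading and in inflammatory responses.

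The promoters of 4 members are shown because they were the ones with a match to the sterol element or the direct repeat defined below. Promoters in RefSeq on GRCm38.p6, from 250 bases before to 50 bases after a start site, were matched by symbol to 27 of the 33 members, which gave 35 promoters. The motif TCACNCCAC (the sterol regulatory element) was searched on both strands, as was a direct repeat of the kind bound by liver X receptors, taken as 2 copies of GGTNA with 5 bases between them. In the sequences shown, neither overlaps another motif searched. The sterol element was found in Hmgcs1 alone, 1 of 20 SREBP2 target promoters, and in 1.24% of 32851 promoters of the same length. The repeat was found in Abca1, Fasn and 1 of 3 Srebf1 promoters, so in 3 of 12 LXR target promoters (25.0%), in 0 of 20 SREBP2 target promoters and in 0.718% of all. Each sequence below holds the 250 bases before the start site, 5′ to 3′ on the gene's own strand, with the motif in capitals. Abca1 is chr4:53159896-53160145, Srebf1 is chr11:60210472-60210721 and Fasn is chr11:120824548-120824797, all on the minus strand, and Hmgcs1 is chr13:119690101-119690350 on the plus strand.
Abca1: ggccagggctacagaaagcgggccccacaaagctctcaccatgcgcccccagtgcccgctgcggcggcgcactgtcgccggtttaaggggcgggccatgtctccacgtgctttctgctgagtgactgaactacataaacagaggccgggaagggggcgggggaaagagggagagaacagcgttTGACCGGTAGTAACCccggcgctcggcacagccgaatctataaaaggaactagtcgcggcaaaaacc
Srebf1: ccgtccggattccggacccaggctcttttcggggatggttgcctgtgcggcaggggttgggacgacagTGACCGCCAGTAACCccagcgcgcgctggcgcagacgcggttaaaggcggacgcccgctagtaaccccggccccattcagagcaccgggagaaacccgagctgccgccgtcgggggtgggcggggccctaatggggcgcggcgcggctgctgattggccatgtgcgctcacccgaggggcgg
Fasn: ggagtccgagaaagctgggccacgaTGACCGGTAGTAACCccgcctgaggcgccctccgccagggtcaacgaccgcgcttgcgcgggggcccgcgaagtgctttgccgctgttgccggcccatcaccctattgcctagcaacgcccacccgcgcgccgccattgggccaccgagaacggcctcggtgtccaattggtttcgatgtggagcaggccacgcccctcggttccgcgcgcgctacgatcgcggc
Hmgcs1: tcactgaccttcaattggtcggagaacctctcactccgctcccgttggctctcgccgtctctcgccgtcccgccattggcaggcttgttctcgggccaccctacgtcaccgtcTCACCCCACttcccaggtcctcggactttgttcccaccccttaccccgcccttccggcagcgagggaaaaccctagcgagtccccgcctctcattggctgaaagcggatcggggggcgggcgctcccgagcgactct
In the first 3 promoters the repeat stands as its reverse complement, and its first printed base lies 67, 182 and 225 bases before the start site of Abca1, Srebf1 and Fasn. In Hmgcs1 the element begins 137 bases before the start site. Of the general promoter motifs, the CCAAT box (CCAAT) was in 80.0% of SREBP2 target and 50% of LXR target promoters, against 37.4% of all, and the GC box (GGGCGG) in 85.0% and 50%, against 35.7%. The E-box (CACGTG), also searched, was in 20.0% of SREBP2 target and 8.33% of LXR target promoters, against 7.15% of all. A match describes letters in a window and not a bound site, and a missing match says nothing of SREBP2 or the receptors.

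Total counts ran from 16923982 to 23198324 per library. CX3CL1 replicate 1 stood apart, with 1193 genes without a count against 80 to 170 in the other 8 libraries and a scaling factor of 0.849 against 0.999 to 1.05. Calls and list medians are therefore given from a fit of all 9 libraries and from a fit of the other 8. Fold changes, SEs and adjusted p-values of single genes are from the fit of 8 libraries unless another is named. Its members shifted with transcript length, as described below. All 8 macrophage markers were detected, and their summed level was 28914 to 29447 CPM with BSA, 27169 to 27908 in CX3CL1 replicates 2 and 3 and 23280 to 23839 with CCL26 (CPM, counts per 1000000 on TMM-scaled library sizes). Markers of granulocyte precursors (8 of 8 in the table) summed to 64.7 to 70.3 CPM with BSA and 78.8 to 83.9 with CCL26. In CX3CL1 replicates 2 and 3 they summed to 77.1 and 70.1 CPM. CX3CL1 replicate 1 had 180 CPM for them and 41029 CPM for the macrophage markers. Those of dendritic cells (4 of 6 in the table), fibroblasts (3 of 6), lymphocytes (1 of 6) and adipocytes (2 of 6) stayed at or under 15.0 CPM in every library but CX3CL1 replicate 1, where the adipocyte markers reached 25.1. Their part in the results was not tested. In bulk RNA, fewer cells of a type and less RNA per cell cannot be told apart.

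**Figure D1:**
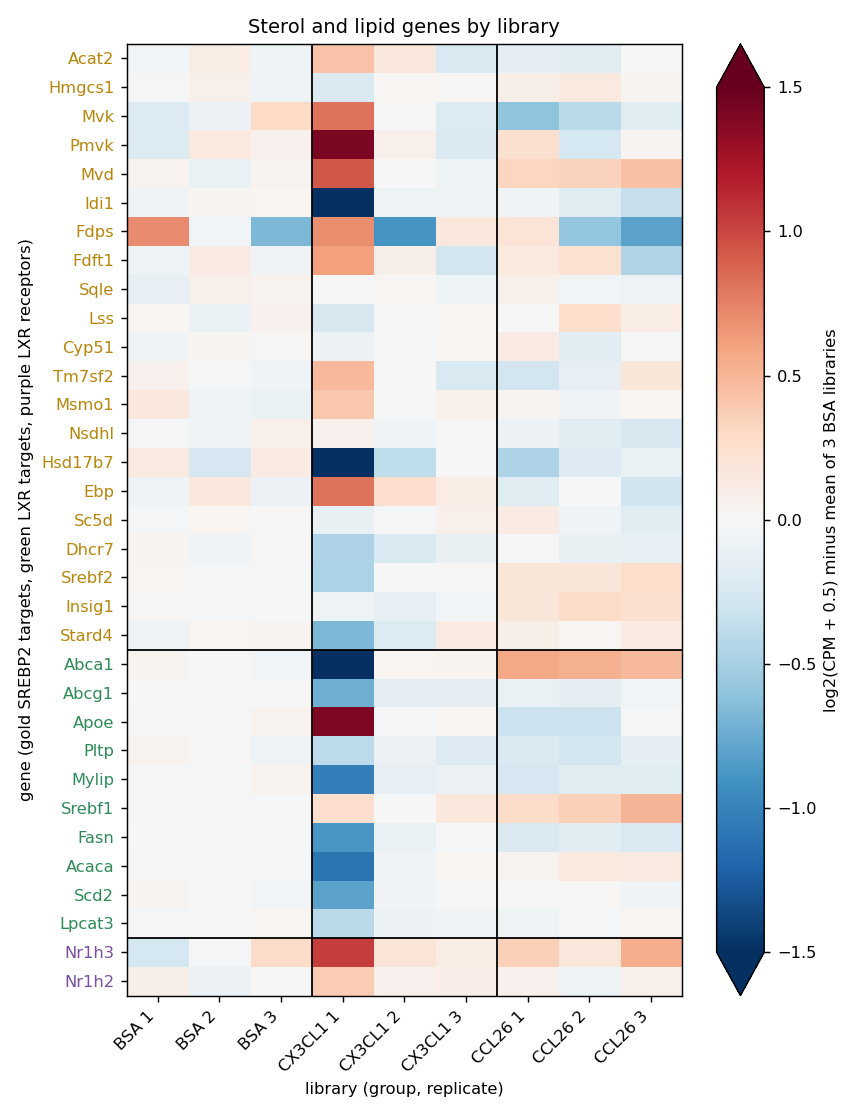
Level of the 33 genes in each of the 9 libraries, as log2(CPM + 0.5) minus the mean of the 3 BSA libraries (red higher, blue lower, values past 1.5 in either direction drawn in the end colours). Abca1 and Srebf1 are red in all 3 CCL26 libraries, and CX3CL1 replicate 1 departs from its 2 replicates in most genes of both programmes.

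With CCL26, members of both programmes were called higher in the fit of 8 libraries. Those called lower in it were LXR targets, while the SREBP2 target Mvk fell just short of a call. In the fit of 8 libraries 5 members rose over BSA, namely Abca1, Srebf1, Mvd, Insig1 and Srebf2, and 4 fell, namely Fasn, Mylip, Apoe and Pltp, while 24 did not pass (quasi-likelihood test of edgeR, threshold 0.05 on p-values adjusted by Benjamini-Hochberg). Of 13245 genes tested 9.74% were called higher and 9.26% lower, so 5 and 4 of 33 members stand near the shares of all genes. By programme, 3 of 21 SREBP2 targets rose and 0 fell, and 2 of 10 LXR targets rose and 4 fell. Among SREBP2 targets 1 had a lower value at an unadjusted p under 0.05 (Mvk), which DESeq2 called lower and limma-voom did not. In the fit of 9 libraries no member was called by edgeR, DESeq2 or limma-voom, with 2 at an unadjusted p under 0.05 in edgeR. The lowest edgeR adjusted p there was 0.426 among LXR targets (Srebf1) and 0.742 among SREBP2 targets (Insig1). Of 12915 genes tested in that fit 0.387% were called higher and 0.0465% lower. Log2 fold changes hardly differed between the fits, 0.54 and 0.54 for Abca1, but the SE of Abca1 was 0.0404 with 8 libraries and 0.42 with 9. The library left out belongs to neither group compared and enters mainly through the shared spread. Near-equal fold changes therefore follow from the design.

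All 3 CCL26 libraries lay above all 3 BSA libraries for 6 members (Mvd, Srebf2, Insig1, Abca1, Srebf1 and Acaca), and below them for 5 (Nsdhl, Abcg1, Pltp, Mylip and Fasn). Among all genes 16.6% lay above and 16.5% below in the same way. The separated members made up 3 and 1 of the 21 SREBP2 targets and 3 and 4 of the 10 LXR targets.

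**Figure D2:**
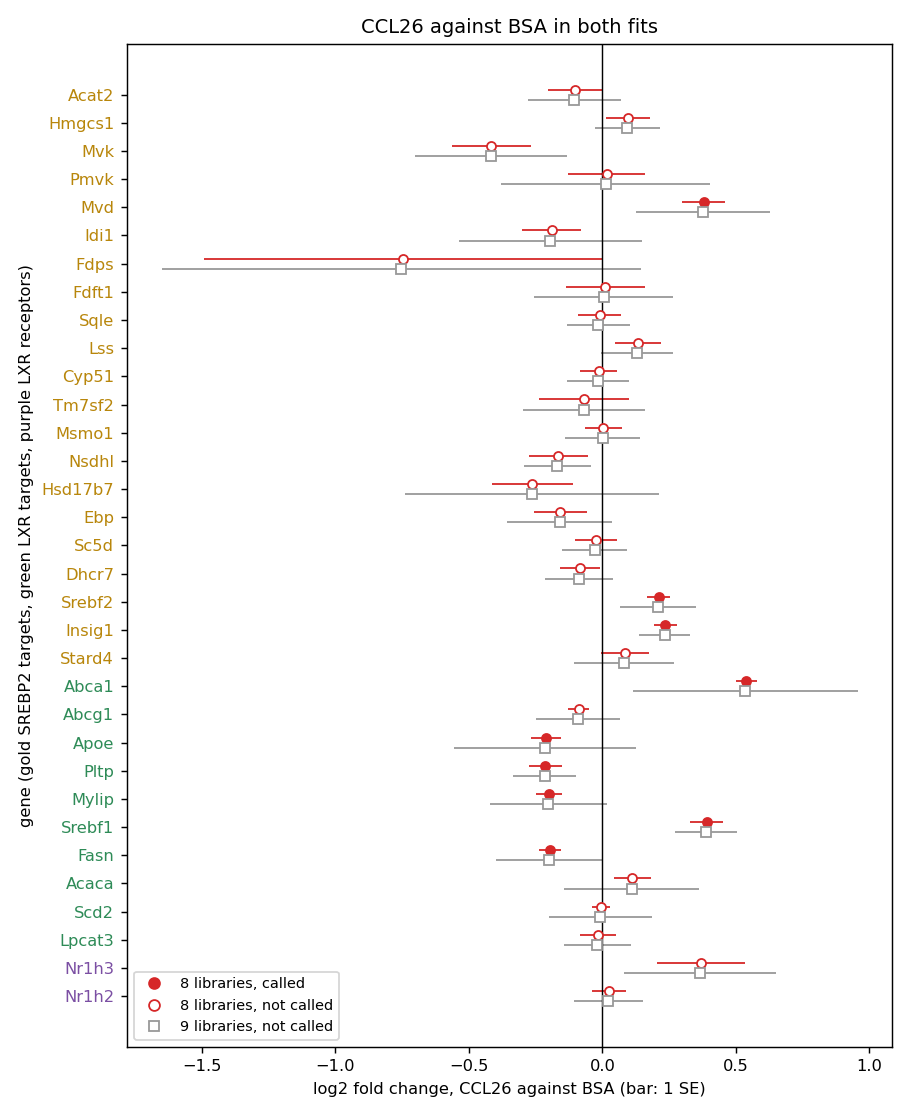
Log2 fold change of each gene with CCL26 against BSA, with a bar of 1 SE, in the fit of 8 libraries (circles, filled where called) and of 9 libraries (squares). Point estimates of both fits lie together while the bars of the 9-library fit are wider, for Abca1 0.42 against 0.0404. The library left out, CX3CL1 replicate 1, is in neither group compared.

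The regulators of the SREBP system rose with CCL26 in the fit of 8 libraries. Srebf2 encodes SREBP2 itself and spans chr15:82147181-82205379 on the plus strand (GENCODE M21, GRCm38). Its level was 213, 206 and 207 CPM in BSA replicates 1 to 3, 149.8, 209 and 211 in CX3CL1 replicates 1 to 3, and 237, 236 and 251 with CCL26. Each CCL26 library was above each of the others. The log2 fold change over BSA was 0.21 (SE 0.044, n = 3 per group, edgeR adjusted p = 0.00105), or 1.16-fold. Insig1 (chr5:28071363-28078662, plus strand), whose product holds SREBPs in the endoplasmic reticulum and is itself an SREBP target, stood at 258, 249.6 and 256 CPM with BSA. It was at 242, 234 and 248 CPM with CX3CL1 and at 289, 308 and 299 with CCL26. Groups did not overlap between CCL26 and either other treatment, and the log2 fold change over BSA was 0.24 (SE 0.0426, adjusted p = 0.000223), or 1.18-fold. Stard4, which encodes a carrier that moves sterol between membranes, did not pass. It had 36.2, 39.0 and 39.3 CPM with BSA, 23.7, 32.9 and 41.6 with CX3CL1 and 40.5, 39.0 and 41.6 with CCL26, with overlapping groups (log2 fold change 0.08, SE 0.0898, adjusted p = 0.594).

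Of the 18 enzymes of cholesterol synthesis, 1 rose with CCL26, 0 fell and 17 did not pass, with a median log2 fold change of -0.05. The enzyme that rose was Mvd, mevalonate diphosphate decarboxylase (chr8:122433601-122443422, minus strand). It had 38.4, 34.8 and 38.4 CPM with BSA, 71.5, 37.0 and 35.4 with CX3CL1, and 46.6, 47.6 and 50.8 with CCL26. Apart from CX3CL1 replicate 1, every CCL26 library was above every other library. The log2 fold change over BSA was 0.38 (SE 0.0806, adjusted p = 0.00126), or 1.30-fold. Mvk, mevalonate kinase, pointed the other way and fell just short of the threshold. Its level was 14.3, 15.5 and 20.5 CPM with BSA, 29.5, 16.6 and 14.3 with CX3CL1, and 10.7, 12.4 and 14.5 with CCL26, where the highest CCL26 library overlapped the lowest BSA library. Its log2 fold change was -0.42 (SE 0.147, edgeR adjusted p = 0.0500334). It passed in 9 of 19 alternatives, among them leaving out BSA replicate 1 (-0.52, adjusted p = 0.032) or CCL26 replicate 3 (-0.53, adjusted p = 0.013).

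The remaining early enzymes, which lead from acetyl-CoA to farnesyl diphosphate, showed no change past the test. Acat2, the cytosolic thiolase of the first step, had a log2 fold change of -0.10 and Hmgcs1, the synthase of the second step and the holder of the sterol element shown above, had 0.10 (SE 0.0816). Hmgcs1 read 36.2, 39.2 and 35.7 CPM with BSA and 39.3, 41.0 and 38.2 with CCL26, which overlap. Pmvk, phosphomevalonate kinase, had 0.02 and Idi1, the isopentenyl diphosphate isomerase, had -0.19 (SE 0.11). Fdps, farnesyl diphosphate synthase, was counted at only 0.174 to 1.54 CPM, with as few as 3 counts in a library, and its -0.75 had an SE of 0.745. Near-identical copies of Fdps can share its reads, and its exons overlap Gm43738 on the same strand, so its level is uncertain. The part of either in its counts was not tested.

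The late enzymes, from squalene to cholesterol, did not pass either. Fdft1 (squalene synthase, 0.01), Sqle (squalene epoxidase, -0.01), Cyp51 (the lanosterol demethylase, -0.01) and Msmo1 (a methylsterol oxidase, 0.004) had values within 0.02 of no change. Lss, which closes the ring to lanosterol, had 0.13 (SE 0.0861). Nsdhl and Hsd17b7, which act together in removing methyl groups, had -0.16 (SE 0.112) and -0.26 (SE 0.151), and Nsdhl was lower in all 3 CCL26 libraries (17.9, 16.8 and 16.1 CPM) than in the 3 BSA libraries (18.7, 18.3 and 20.2). Ebp, the sterol isomerase, had -0.16 (SE 0.098), Tm7sf2 and Dhcr7, a pair of sterol reductases, had -0.07 and -0.08, and Sc5d, a desaturase, had -0.02. Adjusted p-values of the 18 uncalled SREBP2 targets ran from 0.0500334 to 0.981. Exons of Fdft1, Cyp51, Hmgcs1, Idi1 and Lss overlap a gene on the other strand, over 18.3%, 3.76%, 12.1%, 9.21% and 3.53% of their exon bases, and no label says whether the counting was strand-specific. Srebf1 (1.94%) and Lpcat3 (10.2%) have such overlaps as well. Besides Fdps, some members overlap a gene on the same strand: Tm7sf2 (Vps51), Nr1h3 (Gm13783), Srebf1 (Mir6922) and Scd2 (Mir5114). The part of these overlaps in the counts was not tested. The partner of Fdft1 is the cathepsin gene Ctsb, at 10463 ± 39.2 CPM with BSA and 9133 ± 32.7 with CCL26 (SD, n = 3), far above the 18.03 and 18.07 CPM of Fdft1.

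**Figure D3:**
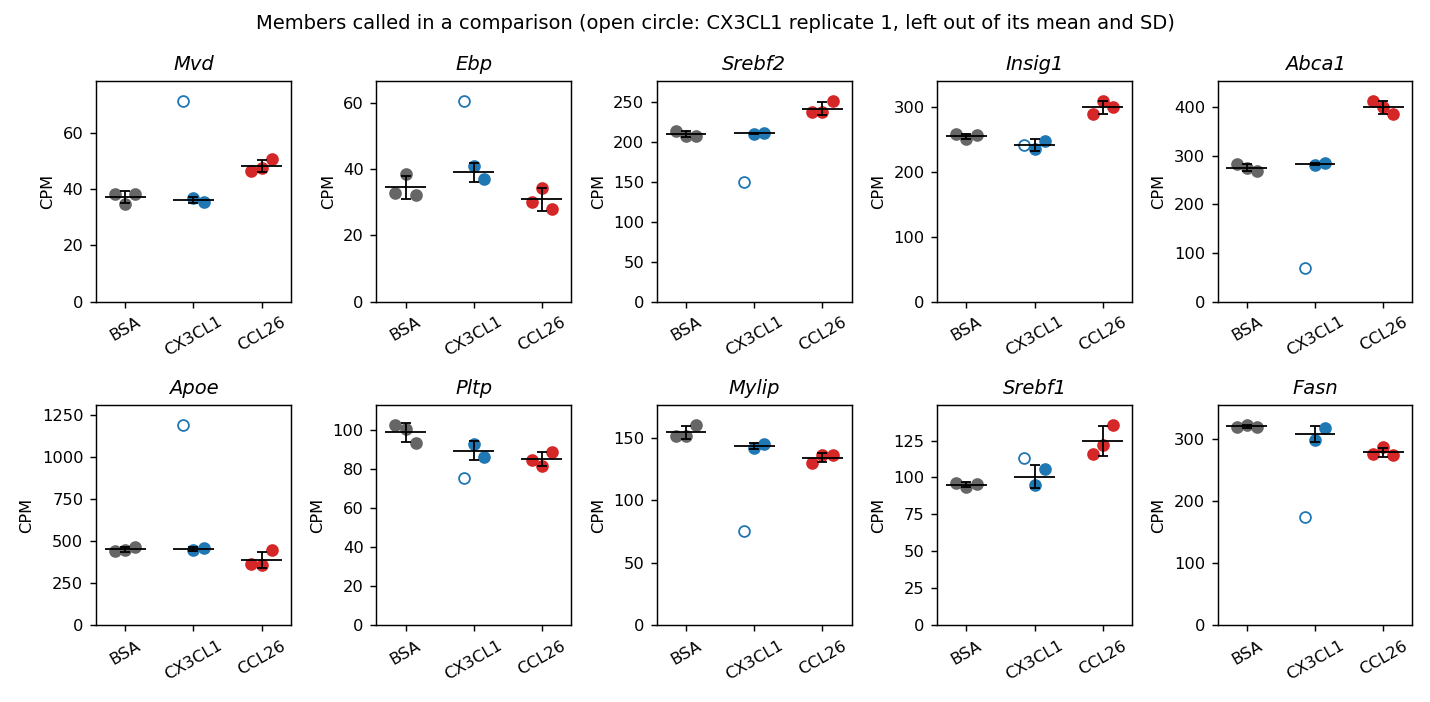
CPM of the 10 genes called in a comparison, by library, with the mean and SD of each group (n = 3 for BSA and CCL26, n = 2 for CX3CL1, where replicate 1 is drawn open and left out). CCL26 libraries of Abca1 lie between 387 and 413 CPM, above all others, and those of Fasn between 274 and 287, below all but CX3CL1 replicate 1.

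Efflux and lipoprotein genes moved in both directions. Abca1, the exporter that loads cholesterol onto lipid-poor apolipoprotein, rose the most of the 33 members (chr4:53030787-53159895, minus strand). It stood at 284, 276 and 269 CPM with BSA, 69.0, 282 and 285 with CX3CL1, and 413, 401 and 387 with CCL26. The lowest CCL26 library was above the highest of the other 6, and the log2 fold change over BSA was 0.54 (SE 0.0404, edgeR adjusted p = 2.95e-10), or 1.45-fold. Abcg1, which exports cholesterol to high-density lipoprotein, did not follow it. It had 355, 353 and 353 CPM with BSA, 213, 319 and 321 with CX3CL1, and 331, 320.1 and 345 with CCL26, so that every treated library lay below every BSA library (log2 fold change with CCL26 -0.09, SE 0.0397, adjusted p = 0.128). Without CCL26 replicate 3 Abcg1 passed (-0.12, adjusted p = 0.00989).

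Apoe, Pltp and Mylip fell. Mylip (chr13:45389742-45412022, plus strand), the ligase that marks lipoprotein receptors for degradation, had 151, 152 and 161 CPM with BSA, 75.8, 142 and 146 with CX3CL1, and 129.8, 137 and 136 with CCL26. No CCL26 library reached a BSA library, at a log2 fold change of -0.20 (SE 0.0498, adjusted p = 0.00498). Pltp (chr2:164839518-164857711, minus strand), the phospholipid transfer protein, had 103, 100.5 and 93.5 CPM with BSA, 75.4, 93.1 and 86.1 with CX3CL1, and 84.8, 81.6 and 89.0 with CCL26. Its groups did not overlap between CCL26 and BSA (-0.21, SE 0.0618, adjusted p = 0.0155). The call was lost without BSA replicate 1 (-0.18, 0.0869), BSA replicate 2 (-0.20, 0.0661) or CCL26 replicate 2 (-0.18, 0.074). Exons of Pltp overlap Ctsa, on the other strand, over 19.3% of their bases, and Ctsa was at 996 ± 9.85 CPM with BSA and 930 ± 14.5 with CCL26 (log2 fold change -0.10, adjusted p = 0.0241). The part of Ctsa in the counts of Pltp was not tested.

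Apoe, the lipoprotein ligand secreted by macrophages (chr7:19696109-19699188, minus strand), rested on fewer libraries. It stood at 441, 446 and 467 CPM with BSA, 1192, 445 and 461 with CX3CL1, and 362, 359.9 and 445 with CCL26. CCL26 replicates 1 and 2 were below all others, while replicate 3 lay within the BSA range. The log2 fold change over BSA was -0.21 (SE 0.0562, adjusted p = 0.00831). DESeq2 did not call it (adjusted p = 0.092), and edgeR lost it without BSA replicate 3 (-0.19, 0.0534), CCL26 replicate 1 (-0.16, 0.0722) or CCL26 replicate 2 (-0.16, 0.0727).

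Among the lipogenesis genes the regulator rose while its best known target fell. Srebf1, which encodes SREBP1 (chr11:60199089-60222581, minus strand), had 96.4, 93.3 and 95.8 CPM with BSA, 113, 95.2 and 106 with CX3CL1, and 116, 122 and 136 with CCL26. All 3 CCL26 libraries were above the rest, at a log2 fold change over BSA of 0.39 (SE 0.0627, adjusted p = 5.7e-05), or 1.31-fold. Fasn, fatty acid synthase (chr11:120805846-120824547, minus strand), had 319, 323 and 319 CPM with BSA, 174, 299 and 317 with CX3CL1, and 275, 287 and 274 with CCL26. The CCL26 and BSA libraries did not overlap, and the log2 fold change over BSA was -0.20 (SE 0.0406, adjusted p = 0.000909), a fall of 12.8%.

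Acaca, which makes the malonyl-CoA that fatty acid synthase uses, leaned the other way without passing. It had 53.9, 53.7 and 51.9 CPM with BSA, 24.6, 51.3 and 54.2 with CX3CL1, and 55.0, 58.9 and 58.2 with CCL26 (log2 fold change 0.11, SE 0.07, adjusted p = 0.303). Scd2, a stearoyl-CoA desaturase, had a log2 fold change of -0.004 (SE 0.0337) and Lpcat3, which places polyunsaturated chains in phospholipids, had -0.02 (SE 0.0685). The CCL26 and BSA libraries overlapped for both. The 3 genes whose promoters hold the direct repeat thus split, with Abca1 and Srebf1 higher and Fasn lower.

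Neither receptor gene passed the test. Nr1h3, the LXRalpha gene, had 7.18, 8.52 and 10.8 CPM with BSA, 18.3, 10.01 and 9.42 with CX3CL1, and 11.3, 9.84 and 13.0 with CCL26, with overlapping groups (log2 fold change over BSA 0.37, SE 0.164, adjusted p = 0.126). It passed without BSA replicate 3 (0.53, adjusted p = 0.0456). Nr1h2, the LXRbeta gene, ran from 80.5 to 91.5 CPM with BSA and from 81.2 to 90.2 with CCL26 (0.02, SE 0.0645, adjusted p = 0.847).

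As lists, SREBP2 targets and LXR targets had median log2 fold changes near 0 with CCL26. The medians over BSA in the fit of 8 libraries were -0.0139 for SREBP2 targets and -0.0525 for LXR targets, against 0.00821 for all genes. They differed by 0.0386, less than the SD of 0.0609 between libraries of a group in the mean difference of the lists. That SD describes single libraries and list means, Fdps included, so it is a rough yardstick and not an SE of the difference of medians. With the 5 efflux and lipoprotein genes alone as LXR list, of which 1 rose and 3 fell, the LXR median was -0.201 and the difference 0.187. Leaving out CCL26 replicate 1 turned the difference to -0.0341. With all 9 libraries the medians were -0.0178 and -0.0554, a difference of 0.0376 at an SD of 0.218. The near-zero medians hide opposite members, from -0.21 for Pltp to 0.54 for Abca1 among LXR targets. Within the SREBP2 list Srebf2, Insig1 and the sterol carrier Stard4 had a mean level of 0.15, 0.16 and 0.21 (log2) above BSA in CCL26 replicates 1 to 3. The 18 enzymes, Fdps with its few counts included, had -0.02, -0.11 and -0.15 there, -0.11 and -0.04 in CX3CL1 replicates 2 and 3, and as low as -0.04 in BSA replicate 3.

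**Figure D4:**
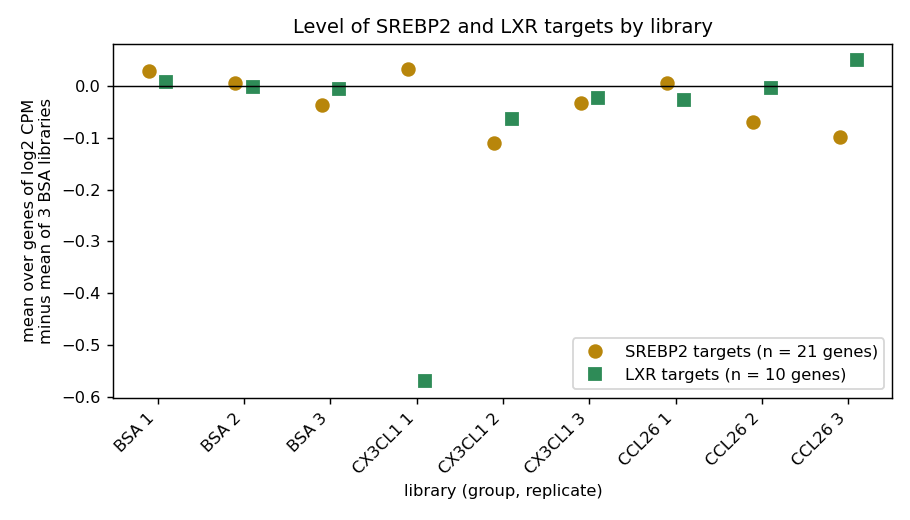
Mean over the 21 SREBP2 targets (circles) and the 10 LXR targets (squares) of log2 CPM (prior count 0.5) minus the mean of the 3 BSA libraries, by library. The LXR targets of CX3CL1 replicate 1 sit at -0.57, while the other 8 libraries range from -0.06 to 0.05.

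The lists stood furthest apart in CX3CL1 replicate 1. Its SREBP2 targets were at 0.03 and its LXR targets at -0.57 on the log2 scale relative to BSA, a difference of 0.60. In the other 8 libraries that difference ranged from -0.15 to 0.03. It was the lowest of the 9 libraries for 8 of 10 LXR targets, from Abca1 to Lpcat3, and the highest for Apoe. Of the SREBP2 targets it was highest for 8, lowest for 7 and in between for 6, and it was highest for both receptor genes.

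The same library differed from the rest by transcript length. Relative to BSA, the median log2 difference over genes of at least 5 CPM was 1.20 for transcripts under 1500 bases (1358 genes) and 0.30 from 1500 to under 3000 bases (3088 genes). It was -0.38 from 3000 to under 5000 bases (2941 genes) and -0.996 at 5000 bases or more (1943 genes). The other 8 libraries stayed between -0.11 and 0.08 in each class, and CCL26 replicates 1 and 2 were at 0.08 in the longest class and -0.10 and -0.11 in the shortest. The lists differ in length, with a median transcript of 2758 bases for SREBP2 targets and 4877 bases for LXR targets, and 5 of 10 LXR targets but 2 of 21 SREBP2 targets fall in the longest class. Abca1 (10262 bases), Fasn (10050) and Acaca (9513) were each lowest in this library, and Apoe (1408) and Pmvk (1194) highest. Offsets per library for 10 classes of length were then added, chosen after seeing this. The difference of list medians in CX3CL1 against BSA over 9 libraries went from 0.244 to 0.0465. Such offsets are set from these same counts and take out each library's shift by length, so a fall was built in. The part of length in the list difference was not tested.

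**Figure D5:**
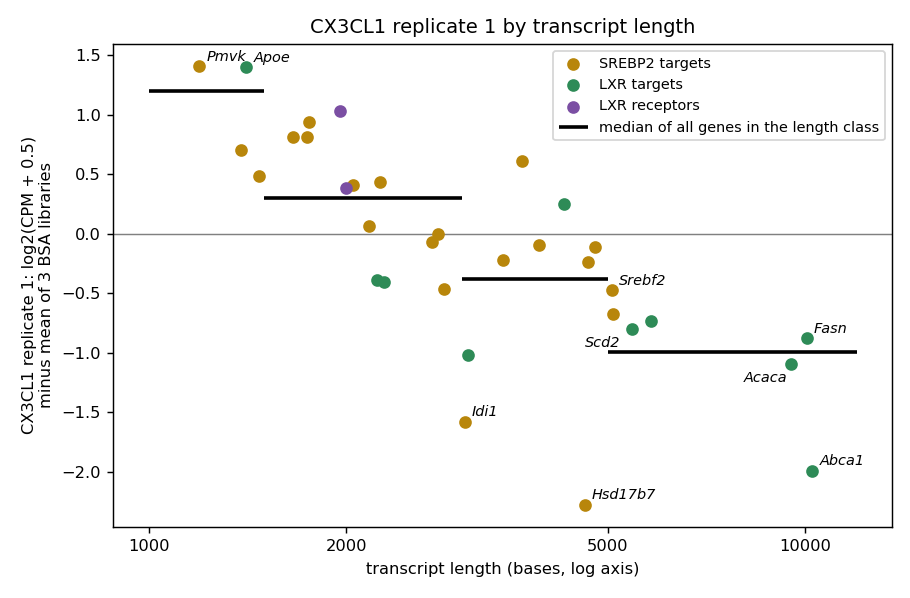
Difference of CX3CL1 replicate 1 from the BSA mean, as log2(CPM + 0.5), against transcript length (log axis) for each gene, with bars at the median of all genes in 4 length classes. Short transcripts such as Pmvk and Apoe sit above 0 and long ones such as Abca1, Acaca and Fasn below it.

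The same offsets bear on the CCL26 calls of long genes. In the fit of 8 libraries Abca1 went from 0.54 to 0.45 and Fasn from -0.20 to -0.29 over BSA, both still called (adjusted p = 1.98e-09 and 5.85e-06). Apoe went from -0.21 to -0.18 (adjusted p = 0.00974) and Abcg1 passed as lower (-0.12, adjusted p = 0.0456). The 9 calls of the fit without offsets all remained past the threshold.

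CX3CL1 against BSA asks what the other ligand did to these genes. No member was called in the fit of 8 libraries, with 2 at an unadjusted p under 0.05 (Abcg1 and Pltp), and DESeq2 and limma-voom called 0 as well. Of all genes 0.0227% were called higher and 0.31% lower. Abcg1 had a log2 fold change of -0.14 (SE 0.0446, edgeR adjusted p = 0.292), and passed without CCL26 replicate 3, which enters through the shared spread (-0.14, adjusted p = 0.0185), or with the BSA and CX3CL1 libraries alone (-0.14, adjusted p = 0.0262). Pltp had -0.14 (SE 0.0692, adjusted p = 0.664). The members that rose with CCL26 had values near 0 or below here: Abca1 0.04 (SE 0.0454), Srebf1 0.08 (SE 0.0705), Srebf2 0.01 (SE 0.0494), Mvd -0.04 (SE 0.0915) and Insig1 -0.08 (SE 0.0479). Among those that fell with CCL26, Fasn had -0.06, Mylip -0.11 and Apoe 0.005.

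List medians for CX3CL1 were -0.0308 for SREBP2 targets and -0.037 for LXR targets, a difference of 0.00623, against -0.00149 for all genes. With replicate 1 included the medians were -0.0149 and -0.259, so that the difference of 0.244 came with that library. No member was called then by edgeR, DESeq2 or limma-voom, 0 had an unadjusted p under 0.05 in edgeR, and 0% of all genes were called higher and 0% lower. Abca1, for example, moved from 0.04 to -0.38 (SE 0.42) and Apoe from 0.005 to 0.63 (SE 0.343).

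The direct comparison of the ligands tests whether the members differ between CCL26 and CX3CL1, and it shares the CCL26 libraries with the comparison against BSA. In the fit of 8 libraries 5 members were higher with CCL26 and 3 lower (edgeR), against 5.47% and 4.64% of all genes. Higher were Abca1 (log2 fold change 0.50, SE 0.0456, adjusted p = 1.58e-08), Insig1 (0.31, SE 0.048, adjusted p = 5.74e-05), Mvd (0.42, SE 0.0907, adjusted p = 0.00285), Srebf1 (0.31, SE 0.0702, adjusted p = 0.00446) and Srebf2 (0.20, SE 0.0493, adjusted p = 0.00813). They are the same 5 genes that rose over BSA. Abca1 and Insig1 passed in all 19 alternatives. With a single CX3CL1 library left Srebf2 no longer passed (without replicate 2 at 0.20, adjusted p = 0.101; without replicate 3 at 0.21, 0.0822), nor did Srebf1 without replicate 2 (0.23, 0.16) or Mvd without replicate 3 (0.38, 0.073).

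Lower with CCL26 than with CX3CL1 were Apoe (-0.22, SE 0.0625, adjusted p = 0.025), Fasn (-0.14, SE 0.0453, adjusted p = 0.0471) and Ebp (-0.33, SE 0.108, adjusted p = 0.0498). Ebp, which isomerises a late sterol intermediate (chromosome X, 8185329 to 8193512, minus strand), had 32.8, 38.5 and 32.3 CPM with BSA, 60.7, 41.0 and 37.1 with CX3CL1, and 30.2, 34.5 and 28.0 with CCL26. Its CCL26 libraries lay below the CX3CL1 libraries but across the BSA range. All 3 lost their call in some fits with a single library left out, BSA libraries included, which enter this comparison through the shared spread, while the direction stayed the same. Ebp lost its call without any of BSA replicates 1, 2 and 3, CX3CL1 replicates 2 and 3 or CCL26 replicates 1 and 3, with adjusted p from 0.0513 to 0.386 and log2 fold changes from -0.26 to -0.42 over all such fits. Fasn lost it without any BSA or CX3CL1 library or CCL26 replicate 1 (0.0684 to 0.466; -0.10 to -0.18 over all), and Apoe without CX3CL1 replicates 2 and 3 or CCL26 replicates 1 and 2 (0.0893 to 0.22; -0.16 to -0.33 over all). Mylip (-0.10, adjusted p = 0.338) and Pltp (-0.07, adjusted p = 0.631), which fell against BSA, did not pass here.

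With all 9 libraries no member was called between the ligands by edgeR, where 5 had an unadjusted p under 0.05, or by limma-voom, while DESeq2 called Insig1 higher. Of all genes 0.395% were higher and 0.0155% lower. The list medians were 7.62e-05 for SREBP2 targets and 0.189 for LXR targets with 9 libraries, and 0.00816 and 0.0333 with 8. The difference between the lists was -0.189 and -0.0251, and its sign was not stable. Both were smaller in size than the SD between libraries in the mean difference of the lists (0.218 and 0.0609), the rough yardstick used above. With 9 libraries that SD includes CX3CL1 replicate 1, at 0.60 against -0.15 to 0.03 in the other 8, so it cannot serve to judge the -0.189. The difference was 0.0214 with length-class offsets and 9 libraries, and ran from -0.069 to 0.0206 when single libraries were left out of the 8. With efflux and lipoprotein genes alone as LXR list and 8 libraries it was 0.0778.

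Other genes of these pathways, 55 in all and chosen for function, moved in both directions too. Of the 53 in the table, 8 rose and 8 fell with CCL26 over BSA in the fit of 8 libraries, and none was called with 9 libraries by edgeR (3 at an unadjusted p under 0.05), DESeq2 or limma-voom. These counts are to be read against the 9.74% of all genes called higher and 9.26% called lower in the fit of 8 libraries. None of 6 tested genes of SREBP processing passed. Of 20 other genes that SREBPs drive, 1 rose and 2 fell, and of 10 other LXR pathway genes 2 rose and 1 fell. Of 17 genes of sterol storage, hydroxylation and trafficking 5 rose and 5 fell. These last rises included the sterol transfer genes Gramd1b (0.38, adjusted p = 1.33e-06) and Gramd1a (0.34, adjusted p = 0.000326).

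The named genes that fell have several roles. Lipa, the lysosomal acid lipase, went from 1680.0 ± 16.6 to 1413 ± 68.4 CPM (SD, n = 3, log2 fold change -0.25), Cd36, a fatty acid and lipoprotein receptor, from 1302 to 1334 CPM in the BSA libraries to 985 to 1138 in the CCL26 libraries (-0.29) and Plin2, a lipid droplet coat protein, from 622 ± 9.41 to 529 ± 1.06 CPM (-0.23). The same direction was called for the LXR target Smpdl3a (-0.20), the lysosomal sterol carrier Npc2 (-0.15) and the phosphatidate phosphatase Lpin1 (-0.38). Acsl3, an acyl-CoA synthetase of lipid droplets, rose by 0.33 and Rxrb, a partner receptor of the LXRs, by 0.26. Ch25h, which makes an oxysterol that activates LXRs and blocks SREBP processing, rose from 3.70 ± 0.186 to 5.99 ± 0.434 CPM (SD, n = 3) (0.70, SE 0.226, adjusted p = 0.0311).

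Against CX3CL1 4 of these 53 genes were higher with CCL26 (Gramd1a 0.33, Fads2 0.29, Acsl3 0.28 and Gramd1b 0.25) and 3 lower (Cd36 -0.21, Lipa -0.19 and Smpdl3a -0.14), near the 5.47% and 4.64% of all genes. Fads2 encodes a fatty acid desaturase. Ch25h did not pass there (0.60, SE 0.253, adjusted p = 0.151). Between CX3CL1 and BSA none of the 53 passed by edgeR, DESeq2 or limma-voom, with 6 at an unadjusted p under 0.05 in edgeR, and Ch25h had 0.10 (SE 0.259).

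Levels of different members were compared per kilobase of transcript, in BSA macrophages. Apoe had the highest level at 321 CPM per kb, followed by Scd2 at 143, Insig1 at 94.3, Abcg1 at 60.7 and Mylip at 50.4. Abca1, the member with the largest rise, ranked 11 of 33 at 26.9 CPM per kb. The most abundant synthesis enzyme was Msmo1 at 37.6 CPM per kb, and Mvd stood at 21.2. The lowest were Nr1h3 at 4.51, Hsd17b7 at 3.09 and Fdps at 0.612, where the Fdps level is uncertain, as said above. Among the receptors Nr1h2, at 42.9 CPM per kb, was above Nr1h3.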

How the data were processed

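The authors deposited 1 table of read counts per gene, whole numbers, not normalized and named as filtered, for 9 libraries (RNeasy Mini kit, NEBNext Ultra II, read pairs of 150 bp, per the labels' protocols). STAR, featureCounts and MultiQC and the builds GRCm38 and mm10 are named without versions per the submitters' processing notes. Columns were matched by sample code.

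Counts were filtered with filterByExpr by group, scaled by TMM and tested with the quasi-likelihood F test of edgeR 4.0.16 in R 4.3.3, group as the only term, Benjamini-Hochberg adjusted over all genes tested, threshold 0.05. All 9 libraries entered 1 fit (12915 genes) and the 8 without CX3CL1 replicate 1 another (13245); all 33 members passed both filters. SE is the log2 fold change over the square root of F. Alternatives used DESeq2 1.42.0, limma-voom 3.58.1, other scalings, filters, thresholds and lists, a replicate block, 2 groups only and single libraries left out. The code was also run on simulated counts whose spread was taken from these data. Its pass mark covered only fold changes larger than those of the called members, so it does not bear on those calls. Transcript lengths (13580 of 13593 genes) and coordinates are from GENCODE M21.

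Members and lists were chosen with earlier results of these data known. Values by library are given for members called in any comparison and 1 further member per role with the smallest p; up to 10 called pathway genes per comparison are named, and Ch25h. The lowest count of a member in a library was 3.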

Additional observations from a re-analysis of the deposited data

How the results depend on the processing

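For CCL26 against BSA with 8 libraries, Abca1, Srebf1, Insig1, Srebf2, Mvd, Fasn and Mylip passed in all 19 alternatives, and Apoe and Pltp in 15 each. SREBP2 targets lower went from 0 to 1 (Mvk) with RLE or upper quartile scaling, a filter of 5 CPM in 3 libraries, DESeq2, a replicate block, a threshold of 0.1 and 2 groups only. Leaving out single libraries gave 0 to 1 SREBP2 targets and 2 to 5 LXR targets lower, with 2 without CCL26 replicate 2. For CX3CL1 against BSA, LXR targets lower went from 0 to 1 (Abcg1) with 2 groups only and ran from 0 to 1 without single libraries. For CCL26 against CX3CL1, SREBP2 targets lower went from 1 to 0 with no filter, the block, a threshold of 0.01, length-class offsets and 2 groups only, and LXR targets lower from 2 to 1 with DESeq2 and the block and to 0 with a threshold of 0.01 and 2 groups only. Without single libraries SREBP2 targets higher there were 1 to 3 and lower 0 to 1, and LXR targets higher 1 to 2 and lower 0 to 2. With 9 libraries, 2 groups only (which drops CX3CL1) gave 3 SREBP2 targets higher and 1 lower and 2 LXR targets higher and 4 lower for CCL26 against BSA. Leaving out single libraries gave 0 to 3 SREBP2 and 0 to 2 LXR targets higher and 0 to 4 LXR targets lower against BSA, and 0 to 3 and 0 to 2 higher and 0 to 1 and 0 to 2 lower against CX3CL1, where every nonzero count came without CX3CL1 replicate 1. DESeq2 called 1 SREBP2 target higher there. The difference of list medians (SREBP2 minus LXR targets) with efflux genes alone as LXR list was 0.187, 0.0743 and 0.0778 for CCL26 against BSA, CX3CL1 against BSA and CCL26 against CX3CL1 with 8 libraries, where the LXR medians became -0.201, -0.105 and -0.0696. Without single libraries the difference ran from -0.0341 to 0.0722 for CCL26 against BSA with 8 libraries, where the SREBP2 median ran from -0.0834 to -0.00305, and from 0.00623 to 0.379 for CX3CL1 against BSA with 9, where the LXR median ran from -0.396 to -0.037 and became -0.0221 with length-class offsets. Members that did not pass changed sign in places. Between the ligands with 9 libraries Mvd and Pltp became -0.00686 and -0.00731 with RLE, -0.057 and -0.042 with upper quartile scaling, -0.0238 and -0.0157 with the filter of 5 CPM and -0.00695 and -0.0080 with DESeq2. With length-class offsets and 9 libraries CX3CL1 against BSA gave -0.0602 for Mvk, 0.0546 for Srebf2 and 0.0815 for Fasn, and CCL26 against CX3CL1 gave -0.0726 for Abcg1, -0.0359 for Srebf1, -0.366 for Fasn and 0.0624 for Nr1h3. With 8 libraries CX3CL1 against BSA gave Apoe -0.00427 with upper quartile scaling and -0.0285 with the block, and Srebf2 -0.0117 with the offsets. Without single libraries, CX3CL1 against BSA with 9 libraries ranged from -0.12 to 0.456 for Mvk, -0.0392 to 0.542 for Mvd, -0.219 to 0.00935 for Srebf2 and -0.653 to 0.0374 for Abca1, and with 8 from -0.229 to 0.0472 for Mvk and -0.0215 to 0.0303 for Apoe. CCL26 against CX3CL1 with 9 libraries ranged from -0.165 to 0.418 for Mvd, -0.0696 to 0.0797 for Pltp, -0.0955 to 0.304 for Mylip, -0.141 to 0.239 for Fasn and -0.316 to 0.228 for Nr1h3. The causes were not tested. Replicate numbers showed no sign of pairing the libraries. Deviations from group means of same-numbered libraries correlated at -0.0223 to 0.0302 with 8 libraries and -0.0627 to 0.0402 with 9. Differently numbered libraries gave -0.0413 to 0.0413 and -0.0516 to 0.0591. Such correlations cannot exclude a shared animal or batch. With the replicate number as a block, 5 members rose and 5 fell with CCL26 against BSA (8 libraries). Against CX3CL1 5 were higher and 1 lower, and 0 were called with 9 libraries. Depth limits Fdps, with as few as 3 counts in a library.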
